A study of Malus domestica with 12 samples.

Results

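Apical buds of apple (Malus domestica, cultivar Golden Delicious) taken at Stage 3, early ecodormancy after 1280 chilling hours, were compared with buds taken at Stage 1, early endodormancy after 665 chilling hours. The comparison used 6 of the 12 libraries of the series: G, H and I of Stage 3 and A, B and C of Stage 1, with 3 biological replicates a stage, each a pool of buds from several trees. Stage 2 (late endodormancy, 1098 chilling hours) and Stage 4 (late ecodormancy, 1395 chilling hours), with 3 libraries each, entered the same model and are given beside it. All buds came from orchard trees of 1 cultivar, and each stage was collected on 1 date, so stage, date, temperature and chilling cannot be told apart. The labels call Stage 3 early ecodormancy, whereas the shading of an expression plot in the study puts its date within endodormancy, and the labels were followed. A forcing test in the study placed the change from endodormancy to ecodormancy around the date of Stage 2, before Stage 3. The assay was small RNA sequencing of RNA bound to ARGONAUTE (AGO) proteins. The 2 deposited tables gave raw read counts for 370 distinct mature sequences, 254 with a database name and 116 without. An endodormant bud does not resume growth even in warm conditions, whereas an ecodormant bud has met its need for cold and waits for warmth. No small RNA in the tables defines a bud or a dormancy phase, so the labels were not checked against markers.

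Plant miRNAs are cut by DICER-LIKE proteins from hairpin transcripts, loaded onto AGO proteins and guided to mRNAs by almost complete pairing, after which the mRNA is cleaved or its translation is reduced. Many conserved families act on transcription factors: miR159 on GAMYB-like MYB genes, miR319 on TCP genes, miR165-miR166 on class III HD-ZIP genes and miR396 on growth-regulating factors. miR858 pairs with MYB genes, several of which control the phenylpropanoid pathway in Arabidopsis. In Arabidopsis seeds, miR159 is part of the response to abscisic acid, a hormone linked with dormancy.

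The sequences below carry the comparison. Each is the mature sequence as deposited, 5′ to 3′ in DNA letters, and capitals mark bases 2 to 8, the seed. The first set had higher counts at Stage 3 and is led by the sequence that passed the adjusted threshold, and mdm-miR159d stands beside mdm-miR159a as its abundant relative:
t11329296_x5768: tATATGGAgggaaatatggtg
mdm-miR159a: cTTGGATTgaagggagctcc
mdm-miR159d: tTTGGATTgaagggagctcta
cpa-miR319: aTTGGACTgaagggagctcc
mes-miR319h: cTTGGACTgaagggagctcct
mdm-miR858: tTCGTTGTctgttcgacctga
ath-miR858b: tTCGTTGTctgttcgaccttg
mtr-miR4414a-5p: aGCTGCTGactcgttggttca
t05229383_x4081: cTTGCATAtctcaggagctgc
mdm-miR5225c: tCTGTCGTgggtgagatggtgc
mdm-miR7121e: tCCTCTTGgtgatcgccctgc
mdm-miR7121c: tCCTCTTGgtgatcgccctgt
t10212079_x3461: gTTTTTGAatggaagactcatgtg
t01163329_x11463: gTTTTTGAatgaaaggctcatgtg

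The second set had lower counts at Stage 3, with mdm-miR166d shown because 2 of the set overlap it:
mdm-miR396d: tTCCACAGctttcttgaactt
mdm-miR162a: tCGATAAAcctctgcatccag
sit-miR05-npr: tTTCGGACcaggcttcattcc
gma-miR166m: cGGACCAGgcttcattcccc
mdm-miR166d: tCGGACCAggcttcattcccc

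Names of other species (cpa, mes, ath, mtr, sit, gma) are database names of an identical sequence, not a source of the RNA. The 6 libraries held 561723 to 2088298 mature reads, the fewest in library H of Stage 3, and 235 to 276 of the sequences were detected in each. Values are CPM, reads scaled to a common library size, after TMM scaling (trimmed mean of M values), whose factors were 1.154 to 1.446 in the Stage 3 libraries and 0.779 to 0.834 in the Stage 1 libraries. Because the factor rescales the total, the CPM of a library need not add up to that size. A count of 0 allowed up to 3 counts, or 1.44 to 5.34 CPM of the mature reads. In these bulk samples, a smaller number of cells of one type and less small RNA per cell cannot be told apart.

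Of the 238 sequences with enough reads to test, 1 had an edgeR quasi-likelihood p under 0.05 after adjustment by Benjamini and Hochberg, which is 0.42% of those tested. At an unadjusted p of 0.05 or less in this contrast, 18 were higher at Stage 3 (7.56%) and 5 were lower (2.1%), 23 in all or 9.66%. The study used the same cut-off on another p, from a likelihood ratio test with 1 value for all its comparisons with Stage 1. It then kept the small RNAs found by both edgeR and DESeq2, so the 23 are not its list. The 22 sequences that missed the adjusted threshold had edgeR adjusted p between 0.132 and 0.511, and they are given here as values and not as changes. The median log2 fold change over all sequences tested was 0.15. The balance of the directions depended on the scaling: the higher ones made up 78.3% of the 23 with TMM, 90.0% with median-of-ratios scaling, 96.9% with the total of mature reads, 94.7% with the read totals the study lists and 60.9% with the reads outside the miR165-miR166 family. In 9 of the 18, every Stage 3 library lay above every Stage 1 library, and in 4 of the 5, every one lay below; over all sequences tested, this held for 22 (9.24%) and 24 (10.1%). The plot of fold change against abundance shows the 23 among the other sequences.

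**Figure D1:**
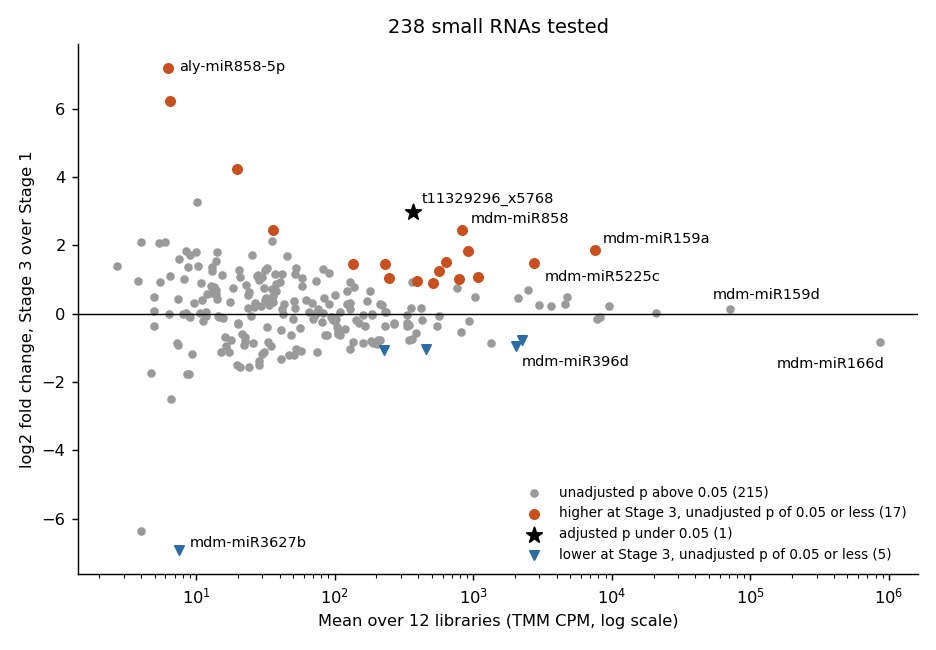
Log2 fold change of Stage 3 over Stage 1 (vertical axis) against the mean TMM CPM over 12 libraries (horizontal axis, log scale) for 238 small RNAs. The star marks t11329296_x5768, the only one with an adjusted p under 0.05; circles and triangles in colour mark those with an unadjusted p of 0.05 or less, and grey points the rest.

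The sequence that passed the adjusted threshold was t11329296_x5768, a 21-nt small RNA without a database name. It had 331.9, 136.6 and 245.9 CPM in Stage 3 libraries G, H and I, against 33.2, 31.5 and 25.1 CPM in Stage 1 libraries A, B and C. Every Stage 3 library was above every Stage 1 library, and the Stage 3 libraries themselves spread widely. Its mean was 238 ± 97.8 CPM at Stage 3 and 29.95 ± 4.27 CPM at Stage 1 (SD, n = 3 each), and the log2 fold change was 2.99 (SE 0.50, edgeR adjusted p = 0.00122). It rose further at the last stage, to 1183 CPM on average at Stage 4, against 238 CPM at Stage 3 (log2 fold change 2.31, edgeR adjusted p = 0.0188). Under the 22 alternatives in which it was tested, the Stage 3 log2 fold change lay between 2.67 and 3.57 and the edgeR or DESeq2 adjusted p between 6.58e-08 and 0.0297.

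Its predicted precursor of 186 bases lies on the plus strand at chr8:11111445-11111630 of the GDDH13 v1.1 apple genome, and no gene annotation of that build was used here. The study's own folding did not find an optimal stem-loop for this small RNA and it was set aside there, so it is called a small RNA and not a miRNA. The small RNA, in capitals, occupies bases 11 to 31 of the 5′ arm:
t11329296_x5768 precursor: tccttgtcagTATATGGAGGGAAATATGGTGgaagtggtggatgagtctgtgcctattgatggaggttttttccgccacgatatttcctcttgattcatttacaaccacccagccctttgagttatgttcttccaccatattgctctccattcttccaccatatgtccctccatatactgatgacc

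Among the regulators of MYB and TCP genes, mdm-miR159a had the largest number of reads of any sequence with an unadjusted p of 0.05 or less. It had 14763, 6120 and 14134 CPM in Stage 3 libraries G, H and I, against 5350, 2162 and 2044 CPM in Stage 1 libraries A, B and C. The stages did not overlap, but library H stood close to library A. The log2 fold change was 1.87 (SE 0.53), with an unadjusted p of 0.00185 and an edgeR adjusted p of 0.132. The adjusted p passed 0.05 under 3 alternatives, at 0.0263 with the total of mature reads, 0.00288 with no filter and 0.0229 in DESeq2. Its mature sequence comes from 2 predicted precursors, on the plus strand at chr1:18000169-18000347 and chr7:20859356-20859533.

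The far more abundant mdm-miR159d shares a run of 18 bases and the seed with mdm-miR159a. It had 96152, 51743 and 123178 CPM in Stage 3 libraries G, H and I, against 91793, 79510 and 74456 CPM in Stage 1 libraries A, B and C. These ranges overlapped, and the log2 fold change was 0.14 (SE 0.37), with a 95% interval from -0.58 to 0.86. Within a library, where no scaling enters, there were 15.4, 11.8 and 11.5 reads of mdm-miR159a per 100 reads of mdm-miR159d in Stage 3 libraries G, H and I. In Stage 1 libraries A, B and C there were 5.83, 2.72 and 2.74. The log2 of this ratio was higher by 1.86 at Stage 3 and the stages did not overlap. The exact two-sided permutation test of 3 against 3 gave p = 0.10, the smallest its 20 splits allow, and 0.233 adjusted over the 7 ratios compared, which were chosen after the values were seen.

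Both miR319 sequences in the set were of low abundance. cpa-miR319 had 174, 239 and 191 CPM in Stage 3 libraries G, H and I, against 94.1, 38.2 and 87.4 CPM in Stage 1 libraries A, B and C (log2 fold change 1.46, SE 0.55, unadjusted p = 0.0150). mes-miR319h had 616, 563 and 679 CPM at Stage 3, against 400, 251 and 310 CPM at Stage 1 (log2 fold change 0.95, SE 0.40, unadjusted p = 0.0269). In both, library H was not apart from the other Stage 3 libraries. mes-miR319h is the more abundant cme-miR319c (log2 fold change 0.48, SE 0.34) with 1 further base at its 5′ end. The most abundant sequence of the family, mdm-miR319a, had 7555, 5529 and 8070 CPM at Stage 3, against 9897, 7462 and 6245 CPM at Stage 1 (log2 fold change -0.16, SE 0.36), and these ranges overlapped. Over both families, 3 of 24 tested sequences (12.5%) passed the unadjusted threshold as higher, against 7.56% of all tested, and 0 as lower; their median log2 fold change was 0.57, against 0.15 for all sequences. Many of the 24 are near-identical, and how reads that fit several of them were shared out is not given in the sources used here.

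**Figure D2:**
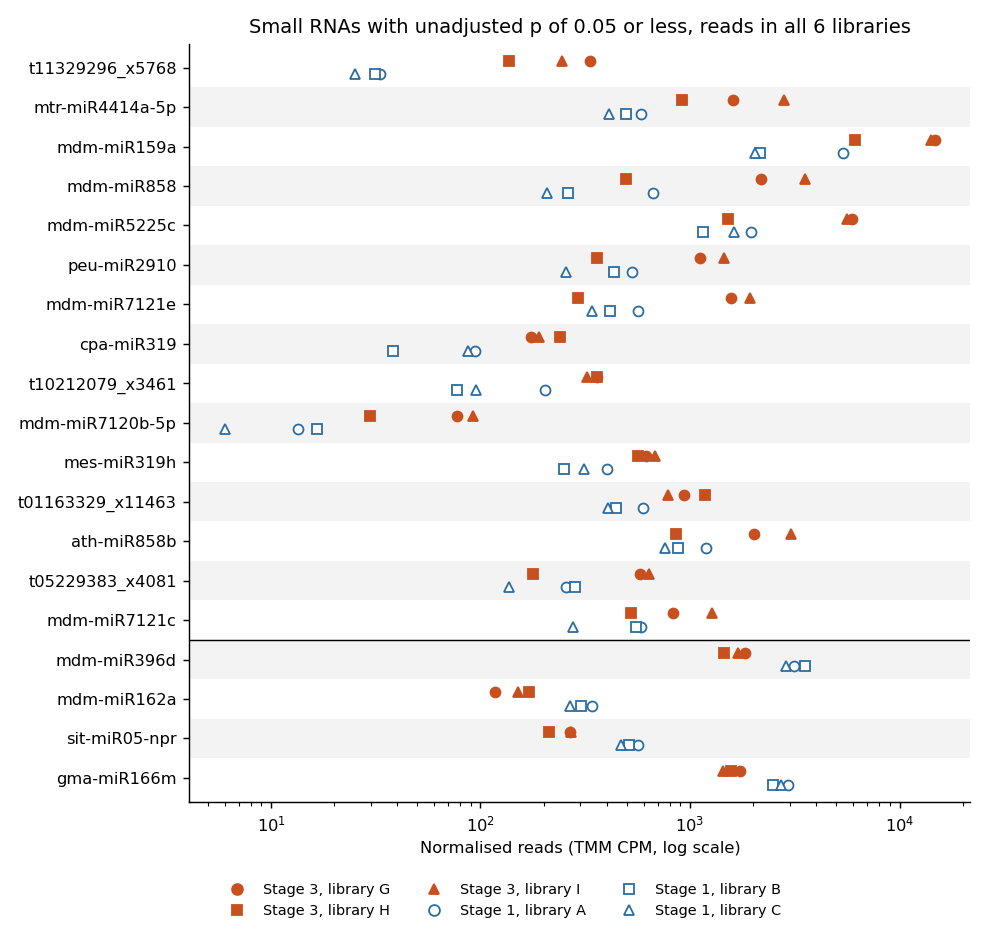
TMM CPM (horizontal axis, log scale) in each Stage 3 library (filled) and Stage 1 library (open) for the 19 small RNAs with an unadjusted p of 0.05 or less and reads in all 6 libraries, with those higher at Stage 3 above the line and those lower at Stage 3 below it. t11329296_x5768 stands clear of its Stage 1 values at 136.6 to 331.9 CPM, whereas for many others the square of library H lies near the Stage 1 points.

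In the miR858 family, all 4 sequences had log2 fold changes above 0, and 3 of the 4 had an unadjusted p of 0.05 or less. Of all 238, 134 were above 0 and 9.66% had such a p. The 4 are near-identical, so their directions are not independent. Of the 3, aly-miR858-5p reached 10 reads only in libraries G and I of Stage 3 and E of Stage 2. mdm-miR858 had 2186, 496 and 3520 CPM in Stage 3 libraries G, H and I, against 669, 261 and 207 CPM in Stage 1 libraries A, B and C (log2 fold change 2.45, SE 0.71, unadjusted p = 0.00223, edgeR adjusted p = 0.132). Library H thus lay below library A, and libraries G and I lay above all 3 of Stage 1. ath-miR858b had 2025, 857 and 3049 CPM at Stage 3, against 1190, 875 and 759 CPM at Stage 1 (log2 fold change 1.07, SE 0.46, unadjusted p = 0.0287). The same library, H, was within the Stage 1 range.

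The 2 sequences share their first 19 bases and differ by G20T and A21G (base of mdm-miR858, position from its 5′ end, base of ath-miR858b). There were 108, 57.9 and 115 reads of mdm-miR858 per 100 of ath-miR858b in Stage 3 libraries G, H and I, against 56.2, 29.8 and 27.3 in Stage 1 libraries A, B and C. The log2 ratio was higher by 1.33 at Stage 3, and libraries H and A were almost equal (exact permutation p = 0.10, adjusted 0.233). The rare aly-miR858-5p had 14, 4 and 48 reads at Stage 3 and 0 reads in all 3 Stage 1 libraries. Set against 3 counts over the whole of Stage 1, it was at least 20.4-fold higher at Stage 3 (unadjusted p = 0.0240), but at least 9.03-fold without library I, which held 48 of the reads, and at least 11.7-fold without A, where the smaller stage also raises the limit for 0 reads.

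A site that the study predicts for both abundant members lies in the apple gene MD02G1087900, which it gives as a predicted orthologue of an Arabidopsis MYB activator of proanthocyanidin synthesis. The 21-base site is shown because mdm-miR858 and ath-miR858b each pair with it at 18 bases, with 1 G-T (G-U in RNA) pair and 2 unpaired bases:
MD02G1087900 site: ccagggcgaacagacaatgaa

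**Figure D3:**
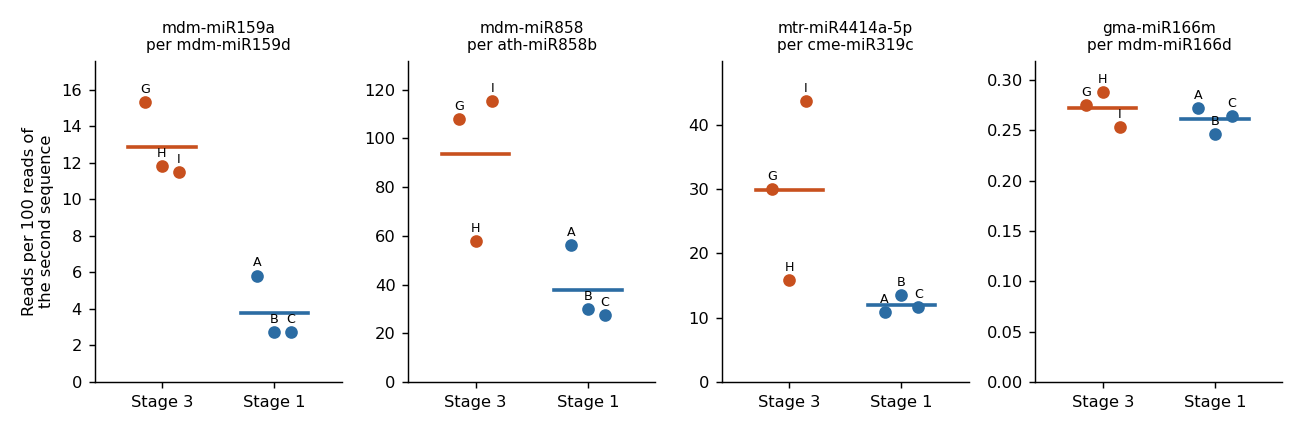
Reads of the first sequence per 100 reads of the second (vertical axes, each from 0) in the 3 libraries of Stage 3 (left) and of Stage 1 (right), with letters for libraries and bars for means. The ratio of mdm-miR159a to mdm-miR159d is 11.5 to 15.4 at Stage 3 and 2.72 to 5.83 at Stage 1, whereas that of gma-miR166m to mdm-miR166d overlaps between the stages.

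Besides the family miRNA, hairpins of 2 families gave a further small RNA with an unadjusted p of 0.05 or less. mtr-miR4414a-5p is encoded inside the hairpins that also give the miR319 member cme-miR319c. It had 1611, 915 and 2807 CPM in Stage 3 libraries G, H and I, against 586, 495 and 411 CPM in Stage 1 libraries A, B and C (log2 fold change 1.84, SE 0.52, unadjusted p = 0.00181, edgeR adjusted p = 0.132). All Stage 3 values lay above all Stage 1 values. cme-miR319c had a log2 fold change of 0.48 (SE 0.34). Per 100 reads of cme-miR319c there were 29.96, 15.9 and 43.8 reads of mtr-miR4414a-5p in Stage 3 libraries G, H and I, against 10.8, 13.6 and 11.7 in Stage 1 libraries A, B and C. The log2 ratio was higher by 1.2003 at Stage 3 (exact permutation p = 0.10, adjusted 0.233). Both sequences are found in hairpins of chromosome 13 and of chromosome 16, so the reads of each locus cannot be told apart. In the hairpin on the minus strand at chr16:2192699-2192883, the capitals mark mtr-miR4414a-5p at bases 52 to 72 and cme-miR319c at bases 160 to 179:
miR319c hairpin: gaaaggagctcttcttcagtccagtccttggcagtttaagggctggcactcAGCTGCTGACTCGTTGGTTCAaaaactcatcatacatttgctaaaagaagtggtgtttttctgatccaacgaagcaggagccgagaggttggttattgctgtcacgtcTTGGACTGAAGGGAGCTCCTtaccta

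The unnamed t05229383_x4081 lies in the same way in the hairpin of mdm-miR159d, and the study's folding set it aside likewise. It had 579, 177 and 639 CPM in Stage 3 libraries G, H and I, against 256, 283 and 137 CPM in Stage 1 libraries A, B and C (log2 fold change 1.05, SE 0.50, unadjusted p = 0.0491), with library H inside the Stage 1 range. Per 100 reads of mdm-miR159d there were 0.603, 0.343 and 0.519 reads of it at Stage 3, against 0.279, 0.356 and 0.184 at Stage 1, and these ranges overlapped (exact permutation p = 0.20, adjusted 0.28). In the hairpin on the plus strand at chr14:31363297-31363521, the capitals mark t05229383_x4081 at bases 136 to 156 and mdm-miR159d at bases 180 to 200:
miR159d hairpin: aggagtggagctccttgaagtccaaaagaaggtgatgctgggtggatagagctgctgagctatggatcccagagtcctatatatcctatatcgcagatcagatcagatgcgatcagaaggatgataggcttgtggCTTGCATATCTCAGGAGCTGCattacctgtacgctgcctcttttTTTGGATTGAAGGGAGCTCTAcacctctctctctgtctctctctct

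Among miRNAs of apple and of few other species, mdm-miR5225c had 5947, 1516 and 5635 CPM in Stage 3 libraries G, H and I, against 1952, 1148 and 1623 CPM in Stage 1 libraries A, B and C (log2 fold change 1.47, SE 0.44, unadjusted p = 0.00277, edgeR adjusted p = 0.132). Libraries G and I were above every Stage 1 library, and library H was within the Stage 1 range. Without library H the edgeR adjusted p was 0.0182. The other tested sequence of the family, the near-identical and rare mdm-miR5225a, had a log2 fold change of -2.51 (SE 2.07). Its reads were 3, 0 and 1 at Stage 3, against 24, 0 and 1 at Stage 1. mdm-miR7121e had 1569, 293 and 1943 CPM at Stage 3, against 567, 415 and 342 CPM at Stage 1 (log2 fold change 1.52, SE 0.57, unadjusted p = 0.0133), and here library H was below all 3 Stage 1 libraries. mdm-miR7121c, which differs from it by C21T (base of mdm-miR7121e first), had 832, 524 and 1268 CPM at Stage 3, against 580, 554 and 277 CPM at Stage 1 (log2 fold change 0.89, SE 0.43, unadjusted p = 0.0497). The miR7121 precursors all lie on the plus strand of chromosome 2.

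mdm-miR7120b-5p had 77.5, 29.5 and 92.5 CPM at Stage 3, against 13.5, 16.6 and 6.03 CPM at Stage 1, without overlap (log2 fold change 2.45, SE 0.96, unadjusted p = 0.0180). mdm-miR7120a-3p, the reverse complement of which shares a run of 14 bases with it, had 3112, 1363 and 4521 CPM at Stage 3, against 2338, 2254 and 1906 CPM at Stage 1, with overlap (log2 fold change 0.47, SE 0.42). peu-miR2910 had 1116, 361 and 1452 CPM at Stage 3, against 529, 436 and 255 CPM at Stage 1 (log2 fold change 1.26, SE 0.46, unadjusted p = 0.0123). Its sequence is also part of plant 18S ribosomal RNA, so its reads need not come from a miRNA. Of the 9 tested sequences of these families, taken with mtr-miR4414a-5p and mdm-miR1511, 6 passed the unadjusted threshold as higher, against 18 of all 238 (7.56%), and 0 as lower, with a median log2 fold change of 1.26, against 0.15 for all. This list was chosen with earlier results of these data known. Other tested apple miRNAs, among them mdm-miR7126-3p and mdm-miR11005, are not in it, so the count does not describe apple miRNAs as a class.

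Small RNAs of 24 nt, the class that guides DNA methylation in plants, had 3 of the 93 tested past the unadjusted threshold as higher and 0 as lower, against 7.56% and 2.1% of all tested, with a median log2 fold change of 0.25. Of these, t10212079_x3461 and t01163329_x11463 differ by G12A and A16G (base of t10212079_x3461 first) and share their seed. t10212079_x3461 had 358, 358 and 323 CPM in Stage 3 libraries G, H and I, against 204, 77.2 and 95.5 CPM in Stage 1 libraries A, B and C (log2 fold change 1.46, SE 0.56, unadjusted p = 0.0156). t01163329_x11463 had 937, 1185 and 788 CPM at Stage 3, against 600, 443 and 404 CPM at Stage 1 (log2 fold change 1.01, SE 0.43, unadjusted p = 0.0286). Neither overlapped between the stages, and for these library H was level with G and I or above them. Their precursors lie on the plus strand at chr11:18121043-18121168 and chr3:16706357-16706454. The third, t06991240_x100, had 16, 0 and 20 reads at Stage 3 and 0 in all Stage 1 libraries. Against 3 counts over Stage 1 it was at least 11.1-fold higher, and at least 6.41-fold without library A. These bounds do not cover the spread between libraries, and the 95% interval of its log2 fold change ran from 0.71 to 11.7. The 21-nt t10036822_x303 had 0, 4 and 26 reads at Stage 3, against 0, 0 and 1 at Stage 1, a ratio of 27.9 with a 95% counting interval from 4.63 to 1137 that does not cover the spread between libraries; it was 6.02 without library I, 16.02 without A, 48.0 without G and at least 6.87 without C.

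On the lower side, mdm-miR396d, whose family acts on growth-regulating factors, had 1840, 1448 and 1700 CPM in Stage 3 libraries G, H and I, against 3145, 3552 and 2884 CPM in Stage 1 libraries A, B and C. The stages did not overlap, and the spread within each was narrow (log2 fold change -0.94, SE 0.37, unadjusted p = 0.0191, edgeR adjusted p = 0.414). All 5 of its near-identical sequences that were tested had log2 fold changes below 0, from -1.05 to -0.23, none with an unadjusted p under the threshold. The 3 tested sequences of the other arm of miR396 hairpins (gma-miR396a-3p, ptc-miR396e-3p and aly-miR396a-3p, named after their values were seen) were above 0, at 0.92, 1.30 and 0.29. mdm-miR162a, which pairs with the mRNA of DCL1, the enzyme that cuts miRNA precursors, had 117, 170 and 151 CPM at Stage 3, against 339, 303 and 268 CPM at Stage 1 (log2 fold change -1.05, SE 0.46, unadjusted p = 0.0324). Together with the families that act on AGO1 (miR168) and AGO2 (miR403), all 5 tested sequences of this group had values below 0, against 104 of all 238. Their median was -0.92, and 1 of the 5 (20%) had an unadjusted p of 0.05 or less, against 9.66% of all. The 5 include csi-miR162*, named as the opposite hairpin strand (miRNA star). It had 0, 8 and 16 reads in Stage 3 libraries G, H and I, against 5, 37 and 4 in Stage 1 libraries A, B and C.

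gma-miR166m is a 20-nt form of mdm-miR166d that lacks its first base. It had 1728, 1573 and 1430 CPM at Stage 3, against 2929, 2496 and 2711 CPM at Stage 1 (log2 fold change -0.78, SE 0.37, unadjusted p = 0.0480). It missed the unadjusted threshold in 17 of 23 alternatives, with values between -0.91 and -0.15. sit-miR05-npr shares a run of 19 bases with mdm-miR166d, shifted at both ends, and had 268, 212 and 271 CPM at Stage 3, against 563, 514 and 468 CPM at Stage 1 (log2 fold change -1.04, SE 0.46, unadjusted p = 0.0346). mdm-miR166d itself had a log2 fold change of -0.84 (SE 0.44, unadjusted p = 0.0713), outside the threshold. Per 100 reads of mdm-miR166d there were 0.275, 0.288 and 0.253 reads of gma-miR166m at Stage 3, against 0.273, 0.247 and 0.264 at Stage 1, and these ranges overlapped (exact permutation p = 0.40, adjusted 0.467). Of the 15 tested miR166 sequences, 14 had log2 fold changes below 0, against 104 of all 238, and 1 (6.67%) had an unadjusted p of 0.05 or less, against 9.66% of all. Many of the 15 are near-identical, so their directions are not independent. How reads that fit several of them were shared out is not given in the sources used here.

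mdm-miR3627b had 0 reads in all Stage 3 libraries, against 26, 0 and 20 reads in Stage 1 libraries A, B and C, at least 16.5-fold lower at Stage 3 when 3 counts over the whole stage are taken for the count of 0 (unadjusted p = 0.0225); the bound was 9.58 without library G, 10.2 without I and 24.1 without B. The unadjusted p without G and without I was above 0.05. Its precursor at chr9:2848282-2848395 lies close to that of mdm-miR5225c at chr9:2851317-2851414, on the same strand. mdm-miR167j was the first sequence outside the threshold (unadjusted p = 0.0515), with 0 reads at Stage 3 and 4, 24 and 2 reads at Stage 1. Of all sequences, 43 had reads at Stage 3 only and 41 at Stage 1 only, and none of them had 10 reads in every library of its stage.

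The share of the mature reads that belonged to miR165-miR166 was 72.9%, 79.6% and 66.2% in Stage 3 libraries G, H and I, against 84.3%, 83.7% and 86.1% in Stage 1 libraries A, B and C. The stages did not overlap, and the mean was 72.9% ± 6.66 at Stage 3 and 84.7% ± 1.27 at Stage 1 (SD; exact permutation p = 0.10, the smallest possible, and 0.125 adjusted over the 15 shares compared). The 95% Wilson intervals of the shares were within 0.105 points on each side and cover counting error only. The miR159 family, counted here with mdm-miR319a, which carries names of both families, took 13.8%, 9.26% and 17.05% of the reads at Stage 3, against 8.40%, 7.40% and 6.95% at Stage 1. Of the reads outside miR165-miR166, however, it took 50.9%, 45.3% and 50.5% at Stage 3, against 53.3%, 45.3% and 50.0% at Stage 1, and these ranges overlapped (exact permutation p = 0.90). The miR396 family showed the opposite: its share of all mature reads overlapped between the stages (0.358% ± 0.0353 at Stage 3 and 0.356% ± 0.0321 at Stage 1), whereas its share of the reads outside miR165-miR166 was 1.38%, 1.55% and 1.13% at Stage 3, against 2.25%, 2.38% and 2.34% at Stage 1 (exact permutation p = 0.10, adjusted 0.375).

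The miR858 family kept its direction with either denominator, at 0.492%, 0.198% and 0.781% of all mature reads at Stage 3 against 0.146%, 0.0935% and 0.0818% at Stage 1. Of the reads outside miR165-miR166 it took 1.82%, 0.971% and 2.31% at Stage 3, against 0.929%, 0.573% and 0.589% at Stage 1 (exact permutation p = 0.10, adjusted 0.375). Sequences of 20 nt, among them mdm-miR159a, likewise made up 12.3%, 10.9% and 10.4% of the reads outside miR165-miR166 at Stage 3, against 8.64%, 6.07% and 6.36% at Stage 1 (exact permutation p = 0.10, adjusted 0.375). The share of 24-nt sequences was 1.11%, 2.34% and 0.869% of all mature reads at Stage 3, against 0.703%, 0.868% and 0.731% at Stage 1, highest by far in library H. Of the reads outside miR165-miR166 it was 4.08%, 11.5% and 2.58% at Stage 3, against 4.46%, 5.32% and 5.26% at Stage 1, so that only library H was above Stage 1 (exact permutation p = 1.0).

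Other families with known targets held no sequence with an unadjusted p of 0.05 or less, except for those given above, as the plot by targets shows; several values near 0 changed sign under other scalings. Of the 12 tested auxin-related sequences, whose median log2 fold change was -0.10, mdm-miR167g stood at 0.17 (SE 0.44), mdm-miR390e at 0.05 (SE 0.48) and mdm-miR393c at -0.33 (SE 0.43). The 8 tested miR167 sequences had a median of -0.34, with 2 above 0 and 6, among them mdm-miR167j, below 0. Of the 7 in the age and flowering group, with a median of 0.62, gma-miR156k was at 0.02 (SE 0.67), mdm-miR156t at -0.07 (SE 1.43), mdm-miR535d at 0.32 (SE 0.93) and mdm-miR172m at 0.62 (SE 1.58). The 32 sequences of the meristem and organ identity group had a median of -0.68, and 15 of them are miR166 sequences, with a median of -0.78. Of the 32, 2 (6.25%) had an unadjusted p of 0.05 or less and were lower. Of all tested, 9.66% had such a p in either direction and 2.1% were lower. In this group, mdm-miR171b was at 0.68 (SE 0.44), mdm-miR164c at -0.27 (SE 0.47), mdm-miR394a at -0.35 (SE 0.67) and ath-miR165a at -0.80 (SE 0.52).

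The 6 tested sequences of families that act on NLR immune receptor genes had a median of 0.06, with mdm-miR482b at 0.24 (SE 0.44) and mdm-miR2118b at -0.37 (SE 0.52). The highest of the 6, at 1.33, was mdm-miR482a-5p, named for the other arm of a miR482 hairpin. mdm-miR168b was at -0.63 (SE 0.93) and mdm-miR403a at -0.30 (SE 0.48). mdm-miR1511, one of the most abundant miRNAs of these buds, was at 0.02 (SE 0.42), with a 95% interval from -0.81 to 0.84. The representatives of 5 further families (miR160, miR395, miR398, miR399 and miR408) had under 10 reads in at least 1 of the 6 libraries.

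**Figure D4:**
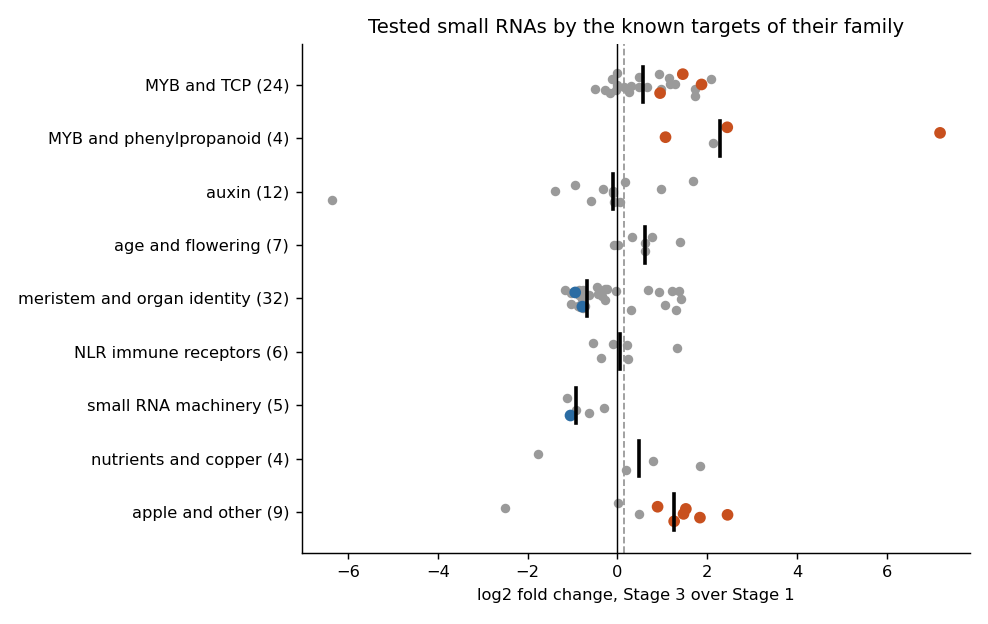
Log2 fold change of Stage 3 over Stage 1 (horizontal axis) for tested small RNAs grouped by the known targets of their family, with the number tested in brackets. Coloured points have an unadjusted p of 0.05 or less (orange higher, blue lower at Stage 3), black bars are medians, from -0.92 for small RNA machinery to 2.29 for the miR858 group, and the dashed line is the median of all 238, 0.15.

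Library H, the shallowest of the 6, was the lowest Stage 3 library for 14 of the 18 higher small RNAs, against 102 of all 238 tested, and library A was the highest Stage 1 library for 13 of the 18, against 91 of 238. What part depth had in this was not tested. The counts at an unadjusted p of 0.05 or less moved with single libraries. The higher ones numbered 9 without library B, 8 without C and 10 without I, and the lower ones 3 without A, 1 without B, 3 without C, 1 without G, 8 without H, 1 without I and 9 without L of Stage 4, whose libraries share the estimate of the spread.

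The levels over the 4 stages are given for 7 further small RNAs, whose courses were not compared with each other by a test. For Stages 1, 2, 3 and 4, the means were 3185, 5294, 11672 and 9880 CPM for mdm-miR159a and 1574, 896, 4366 and 4178 CPM for mdm-miR5225c, both with log2 fold changes of Stage 4 over Stage 3 near 0 (-0.24, SE 0.51, and -0.06, SE 0.43). They were 379, 576, 2067 and 316 CPM for mdm-miR858, 441, 548, 1269 and 269 CPM for mdm-miR7121e, and 497, 759, 1777 and 608 CPM for mtr-miR4414a-5p. These 3 had log2 fold changes of Stage 4 over Stage 3 of -2.71 (SE 0.71), -2.24 (SE 0.58) and -1.55 (SE 0.51), with edgeR adjusted p of 0.0798, 0.0798 and 0.126. Both comparisons use the Stage 3 libraries, so they are not independent. Of those lower at Stage 3, mdm-miR396d had 3193, 1712, 1662 and 1593 CPM from Stage 1 to Stage 4, and mdm-miR162a had 303, 253, 146 and 206 CPM.

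**Figure D5:**
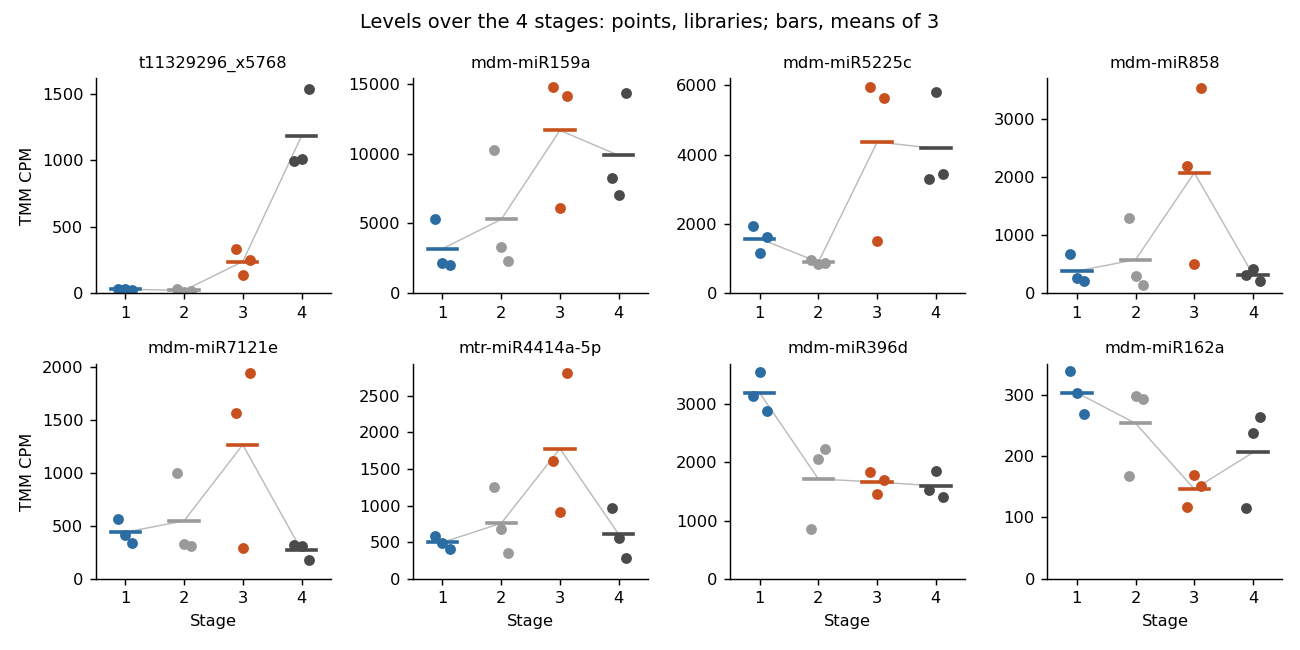
TMM CPM (vertical axes, each from 0) of 8 small RNAs at Stages 1 to 4 (horizontal axis), with points for the 3 libraries of a stage and bars for their means. t11329296_x5768 is highest at Stage 4, mdm-miR858, mdm-miR7121e and mtr-miR4414a-5p have their highest mean at Stage 3, and mdm-miR396d is highest at Stage 1 with a mean of 3193 CPM.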

How the data were processed

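The authors purified small RNAs with the TraPR kit, sequenced them on an Illumina HiSeq3000 and used Mir-Island with the GDDH13 v1.1 build of the apple genome to count reads. They deposited raw read counts per mature sequence, without normalization, in 2 tables: 254 database sequences and 199 usable de novo loci with 154 distinct sequences, 38 of them in both. A further 48 columns, with normalized values or reads of the opposite hairpin strand (miRNA star), were not used. Trimming, mismatches allowed and reads with several loci are not given in the sources used here. Columns were assigned to stages through the library letters in the study's tables, and carry no replicate number. Mature sequences were joined on identity, giving 370.

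Tests on the counts used edgeR 4.0.16 (R 4.3.3): filterByExpr (minimum count 10, minimum total 15), TMM, and the quasi-likelihood F test in 1 model with a mean for each of the 4 stages over all 12 libraries. The Benjamini-Hochberg adjustment took in all 238 sequences; because replicates were pools of buds from 1 orchard and date, p-values measure the spread between those pools. The SE was the log2 fold change divided by the square root of F. Shares and within-library ratios were compared by exact two-sided permutation of 3 against 3 libraries, with p of at least 0.10. Replicates differed beyond sampling noise (chi-square per degree of freedom from 28.6 to 242). The fit was tested on simulated data. Alternatives were other scalings (median of ratios, total mature reads, reads outside miR165-miR166, read totals the study lists), filters, tests (likelihood ratio, DESeq2 1.42.0), robust spread, fewer libraries and the known table alone; ratios of 2 sequences and low-count bounds without each library were added after the values were seen. Named small RNAs are all with an unadjusted p of 0.05 or less, the most abundant tested sequence of each listed family (with values where all 6 libraries had 10 reads), any with 0 reads in 1 stage and 10 or more in every library of the other (none was found), and near-identical sequences. The members and lists were chosen with earlier results of these data known. Target sites were copied from the study's predictions and paired anew. Python 3.11.15, pandas 2.3.3, NumPy 2.4.6, SciPy 1.17.1 and matplotlib were used.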

Additional observations from a re-analysis of the deposited data

Results flagged for a closer look

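t11329296_x5768 differed between Stages 4 and 3 in the direct contrast of the same model, with a log2 fold change of 2.31 for Stage 4 over Stage 3 (edgeR adjusted p = 0.0188). It was the only named small RNA for which this contrast passed an adjusted p under 0.05. All 3 libraries of Stage 4, at 999, 1009 and 1540 CPM, lay above all 3 of Stage 3, at 331.9, 136.6 and 245.9 CPM.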

How the results depend on the processing

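None of the 23 small RNAs with an unadjusted p of 0.05 or less took the other direction in 515 values under alternatives, of which 403 stayed past that threshold and 112 did not; t11329296_x5768, mtr-miR4414a-5p, mdm-miR159a, mdm-miR858 and mdm-miR5225c stayed past it in every alternative that tested them. The threshold was missed in 17 alternatives by gma-miR166m, 16 by mdm-miR7121c, 12 each by sit-miR05-npr and t05229383_x4081, 11 by mdm-miR162a, 8 by mes-miR319h and 5 or fewer by the others. The number with an adjusted p under 0.05 was 2 with the total of mature reads, 4 with no filter, 4 in DESeq2, 0 in the known table alone, which lacks t11329296_x5768 and had 12 higher and 5 lower at the unadjusted threshold, and 1 to 2 when leaving out 1 library. The number higher was 31 with the total of mature reads, and 8 to 17 when leaving out 1 library. The number lower was 2 with median-of-ratios scaling, 1 with the total of mature reads, 9 with reads outside miR165-miR166, 1 with the read totals the study lists, 1 with at least 10 reads in every library compared, 3 in DESeq2, 13 (with 15 higher) in the 6 libraries alone, and 1 to 9 when leaving out 1 library. Against TMM, the difference between the stages in mean log2 scaling moved by 0.62 with the total of mature reads. It moved by 0.25 with the listed read totals and by -0.17 with the reads outside miR165-miR166, where a positive value raises Stage 3. The fitted log2 fold changes of single sequences moved by other amounts. With the listed read totals, mdm-miR164c went from -0.27 to 0.072.

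Log2 fold changes near 0 changed sign. With reads outside miR165-miR166 they were -0.12 for mdm-miR159d, -0.063 for mdm-miR167g, -0.013 for mdm-miR390e, -0.18 for gma-miR156k, -0.082 for mdm-miR482b and -0.16 for mdm-miR1511. With the total of mature reads they were 0.46 for mdm-miR319a, 0.24 for mdm-miR393c, 0.53 for mdm-miR156t, 0.31 for mdm-miR164c, 0.21 for mdm-miR394a, 0.21 for mdm-miR2118b, 0.023 for mdm-miR168b and 0.35 for mdm-miR403a. With the listed read totals they were 0.068 for mdm-miR319a, 0.22 for mdm-miR156t, 0.072 for mdm-miR164c and 0.022 for mdm-miR394a. mdm-miR156t had 0.018 with median of ratios, 0.027 with at least 10 reads in every library and 0.019 in DESeq2. gma-miR156k had -0.038 with no filter. In the 6 libraries alone mdm-miR390e had -0.021, gma-miR156k -0.095 and mdm-miR1511 -0.058, and in the known table alone gma-miR156k had -0.022 and mdm-miR1511 -0.0498. Leaving out 1 library gave -0.21 to 0.22 for gma-miR156k, -0.14 to 0.17 for mdm-miR1511, -0.44 to 0.25 for mdm-miR156t, -0.091 to 0.27 for mdm-miR159d, -0.12 to 0.31 for mdm-miR167g, -0.29 to 0.028 for mdm-miR319a, -0.27 to 0.25 for mdm-miR390e, -0.084 to 0.50 for mdm-miR482b, -0.074 to 0.44 for mdm-miR535d and -0.062 to 0.82 for the log2 ratio of mdm-miR7121e to mdm-miR7121c. As a share of the reads outside miR165-miR166, the difference of Stage 3 minus Stage 1 was -0.662 points for miR159, -1.92 for miR482, -0.965 for miR396, -1.43 for miR1511 and -1.27 for 22-nt sequences; miR396 had -0.00489 as a share of the read totals the study lists and -0.0133 to 0.0225 when leaving out 1 library. The causes were not tested. No paired analysis was possible because the count columns carry no replicate number.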
